A study of Mus musculus with 6 samples.

Results

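The insulin-like growth factor (IGF) genes measured here are the ligands Igf1 and Igf2, the receptors Igf1r and Igf2r, and the binding proteins Igfbp2, Igfbp3, Igfbp4, Igfbp5, Igfbp6 and Igfbp7. They were found by symbol: every probe set (a group of short probes on the array for 1 transcript) whose platform annotation gave 1 of these 10 symbols and no other was taken. This gave 28 probe sets for the 10 genes, out of 18193 genes with a probe set of their own. Cells came from bladders of FVB/N mice, all male and at postnatal day 2. All mice carried a pair of transgenes, EGFP driven by the promoter of smooth muscle gamma actin (SMGA, endogenous gene Actg2) and EYFP driven by that of smooth muscle alpha actin (SMAA, endogenous gene Acta2). Dissected tissue was digested with enzymes and cells were sorted by fluorescence into EGFP-positive, EYFP-positive cells (double-positive, 3 arrays) and EGFP-positive, EYFP-negative cells (single-positive, 3 arrays), both labelled as detrusor muscle, the muscle layer of the bladder wall. A reporter shows promoter activity of a transgene, and no array of cells without EGFP was analysed here. The labels state that samples were not pooled, but do not say whether each of the 3 arrays stands for its own animal. The p-values therefore reflect variation among these arrays, which could be technical.

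IGF1 and IGF2 are secreted peptides that act through IGF1R, a receptor tyrosine kinase that signals through the IRS adaptors to PI3 kinase and Akt. IGF2R has no kinase: it takes up IGF2 for breakdown and also sorts lysosomal enzymes. The binding proteins hold the ligands outside cells, which lengthens their life and limits their access to the receptor, and proteases such as pappalysin (Pappa) cut some of them and release the ligand. In muscle tissues the pathway is known for growth, survival and differentiation.

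Of the 10 genes, 1 passed after correction over all genes tested. Igfbp3 fell in the double-positive cells, to a mean signal 4.21-fold lower than in the single-positive cells, on both of its probe sets. Igfbp2 had a 4.54-fold lower mean signal, but its double-positive arrays were scattered and it missed the threshold. On the brightest probe set of each, both receptors had lower signals on all 3 double-positive arrays, by 1.42-fold for Igf1r and 1.58-fold for Igf2r in the mean, and neither passed. Their other tested probe sets overlapped between groups, and a dim one of Igf1r went the other way. The ligands and Igfbp4, Igfbp5, Igfbp6 and Igfbp7 had overlapping groups. Among the other pathway genes, the binding protein proteases Pappa and Htra1 rose, and Igf2bp3, Grb14, Txnip, Fbxo32 and Pdk4 fell.

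Signals are intensities in arbitrary units, and their median over probe sets was 147.1 to 199.8 in double-positive arrays and 152.9 to 198.6 in single-positive arrays. The number of arrays limits the precision. Actg2 signal was 7404, 13959 and 10423 in the double-positive arrays, against 68165, 60830 and 51399 in the single-positive arrays, although both populations were sorted for the reporter of its promoter. For Acta2, whose promoter drives the EYFP that marks the double-positive cells, no probe set was called higher in them. The brightest, with a suffix that marks it as able to match several transcripts, read 58281, 71648 and 49474 in the double-positive arrays, against 67696, 67708 and 51633 in the single-positive arrays, so the groups overlapped (log2 fold change -0.065, adjusted p = 0.904 over all genes in limma). It ranked 11 to 117 among the probe sets of each array, near the top of the range, where differences can be compressed. The next read 411.8, 435.4 and 264.7 in the double-positive arrays, against 9629, 7271 and 6409 in the single-positive arrays, and fell (log2 fold change -4.31, adjusted p = 0.000483 over all probe sets in limma). The dimmest was lower on all double-positive arrays and did not pass (-3.07, adjusted p = 0.0765). The second probe set runs opposite to the EYFP label, and every direction below is by the labels of the sort. Of 12 smooth muscle markers 10 fell in the double-positive cells, and their summed signal was 161020 to 201211 in double-positive arrays and 373543 to 466422 in single-positive arrays. Markers of cell types other than smooth muscle moved with the groups too. Of 12 leukocyte markers 11 fell, and their summed signal was 11612 to 19665 in double-positive arrays and 87934 to 124833 in single-positive arrays. Of 10 endothelial markers 5 fell, with sums of 6135 to 10381 in double-positive arrays and 32151 to 42576 in single-positive arrays. Urothelial markers (7 of 11 fell) summed to 5204 to 8630 in double-positive arrays and 27006 to 44442 in single-positive arrays. Nerve and Schwann cell markers (5 of 7 tested fell, 8 of 10 listed summed) gave 1534 to 2324 in double-positive arrays and 11081 to 15495 in single-positive arrays. Mesothelial markers (3 of 5 tested fell, 7 summed) gave 2219 to 7269 in double-positive arrays and 10908 to 16625 in single-positive arrays. The 3 that fell, Krt8, Krt18 and Krt19, are keratins also counted among the urothelial markers. Upk3b and Wt1, tested too, had log2 fold changes of 0.12 and 0.22 and did not pass. Msln and Lrrn4, not tested, had means of 76.6 and 61.2 in double-positive arrays and 51.3 and 45.9 in single-positive arrays. The sums therefore do not show a fall of mesothelial markers apart from these keratins. Pericyte and vascular smooth muscle markers (3 of 8 fell) gave 15930 to 32783 in double-positive arrays and 48409 to 52340 in single-positive arrays. Of 10 fibroblast and stromal markers 1 rose and none fell, and sums overlapped, at 405719 to 556356 in double-positive arrays and 398064 to 468254 in single-positive arrays. No marker signal was at 0 on any array. The part of these cells in the differences below was not tested, and fewer cells of a type cannot be told apart from less RNA per cell.

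The ligands were read first. Igf1 signal, on the brightest of its 4 probe sets, was 16248, 24747 and 15442 in the double-positive arrays, against 14128, 24071 and 18080 in the single-positive arrays. The groups overlapped fully, with the highest value of each group on its array 2. The log2 fold change, here and below the double-positive minus the single-positive mean of log2(signal + 25.042), was 0.0047 (SE 0.24) with a 95% interval of -0.53 to 0.54. The other 3 probe sets of Igf1 had log2 fold changes of -0.30, -0.33 and -0.43, each with overlapping groups.

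Igf2, an imprinted gene expressed mainly from the paternal allele, had a signal of 10902, 15742 and 6173 in the double-positive arrays, against 8538, 10951 and 8205 in the single-positive arrays. The double-positive values lay on both sides of the single-positive ones. Its log2 fold change was 0.16 (SE 0.31, 95% interval -0.53 to 0.84, adjusted p = 0.874 in limma). The dimmer Igf2 probe set had 0.21 (SE 0.46 in the fit over all probe sets).

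The receptors differed by less than the Igfbp3 signal did. Igf1r, the signalling receptor, had a signal of 4546, 3412 and 5223 in the double-positive arrays, against 6125, 6773 and 5790 in the single-positive arrays on the brightest of 5 probe sets. All 3 double-positive values were lower, by a narrow margin at the nearest pair. The log2 fold change was -0.52 (SE 0.23, 95% interval -1.04 to -0.0028), and the adjusted p over all genes was 0.281 in limma. The probe sets of Igf1r went different ways. Another 3 tested ones had log2 fold changes of -0.40, -0.17 and -0.57 with overlapping groups. The dimmest read 63.8, 155.9 and 170.7 in the double-positive arrays, against 12.5, 10.1 and 22.9 in the single-positive arrays. That is the opposite direction, at a mean log2 level of 6.26, below the filter on dim probe sets (6.82), and it had an adjusted p of 0.0959 in limma when no filter was set. Averaged over all 5 probe sets, this dim one included, the Igf1r log2 fold change was 0.044, while all 4 tested probe sets had lower means in the double-positive arrays.

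Igf2r, the uptake receptor, had a signal of 8578, 10042 and 7972 in the double-positive arrays, against 16402, 14503 and 11138 in the single-positive arrays. Every double-positive value lay below every single-positive value. Igf2r had a log2 fold change of -0.65 (SE 0.20, 95% interval -1.10 to -0.20, adjusted p = 0.104 in limma). Its other probe set had -0.71 with overlapping groups, at 2447, 3198 and 1006 in double-positive against 4331, 1928 and 4195 in single-positive arrays. A receptor close in sequence to IGF1R, the insulin receptor gene Insr, had a log2 fold change of -0.55 (SE 0.24, adjusted p = 0.257 in limma) and did not pass either.

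**Figure D1:**
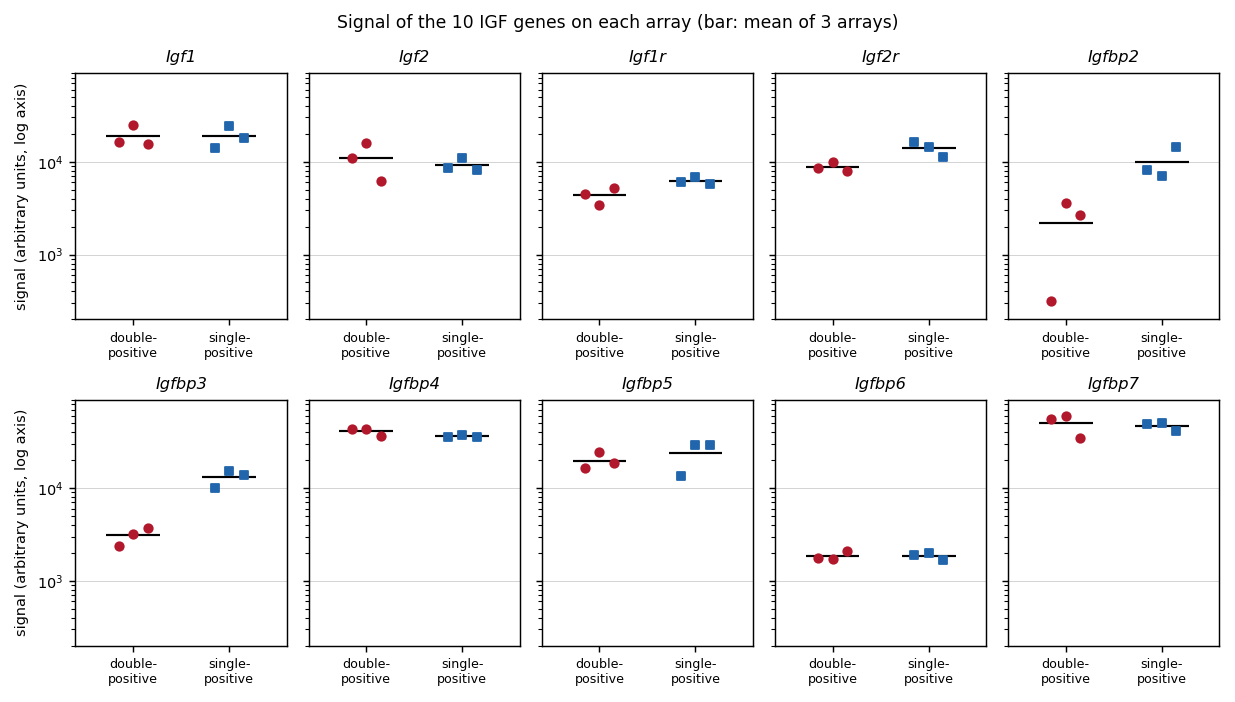
Signal of each IGF gene in arbitrary units (vertical log axis) on the 3 double-positive arrays (circles, left) and the 3 single-positive arrays (squares, right), on the probe set of highest mean, with a bar at each group's mean. Igfbp3 runs from 2375 to 3687 in double-positive arrays and from 9934 to 15439 in single-positive arrays, Igfbp2 has 1 double-positive array far below the others at 318.4, and the panels of Igf1, Igf2, Igfbp4, Igfbp5, Igfbp6 and Igfbp7 overlap between groups.

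The binding proteins held the result that passed. Igfbp3, which carries most IGF in the circulation and is also made locally by stromal and vessel cells, had a signal of 2375, 3219 and 3687 in the double-positive arrays, against 9934, 15439 and 13662 in the single-positive arrays. The means were 3094 ± 665 in double-positive arrays and 13011 ± 2810 in single-positive arrays (n = 3 each, SD), and the groups were well apart. The log2 fold change was -2.06 (SE 0.25, 95% interval -2.62 to -1.50, adjusted p = 0.00118 in limma). The second probe set read 927.2, 1232.6 and 748.4 in double-positive arrays and 2540.5, 4995.6 and 4428.7 in single-positive arrays, a log2 fold change of -1.98 (SE 0.34, adjusted p = 0.0146 in limma over all probe sets). Its suffix marks it as able to match more than 1 transcript. The first probe set passed with any 1 array left out, at log2 fold changes of -2.24 to -1.89, while the number of IGF probe sets that passed was 1 in place of 2 without double-positive array 1, single-positive array 2 or single-positive array 3.

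Igfbp2, a binding protein abundant in fetal tissues, had a single probe set. Its signal was 318.4, 3579 and 2650 in the double-positive arrays, against 8079, 7108 and 14554 in the single-positive arrays. All double-positive values were lower, and double-positive array 1 stood far below the other arrays of its group. The log2 fold change was -2.66 (SE 0.73, 95% interval -4.29 to -1.04, adjusted p = 0.0623 in limma). It was -1.61 (adjusted p = 0.0225) without double-positive array 1, -3.30 (adjusted p = 0.0367) without double-positive array 2 and -3.09 (adjusted p = 0.0463) without double-positive array 3, so that it passed in each of these fits. Without any 1 single-positive array it did not pass, with adjusted p between 0.122 and 0.210. The plot of fits with 1 array left out shows these values beside those of Igfbp3 and the receptors.

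**Figure D2:**
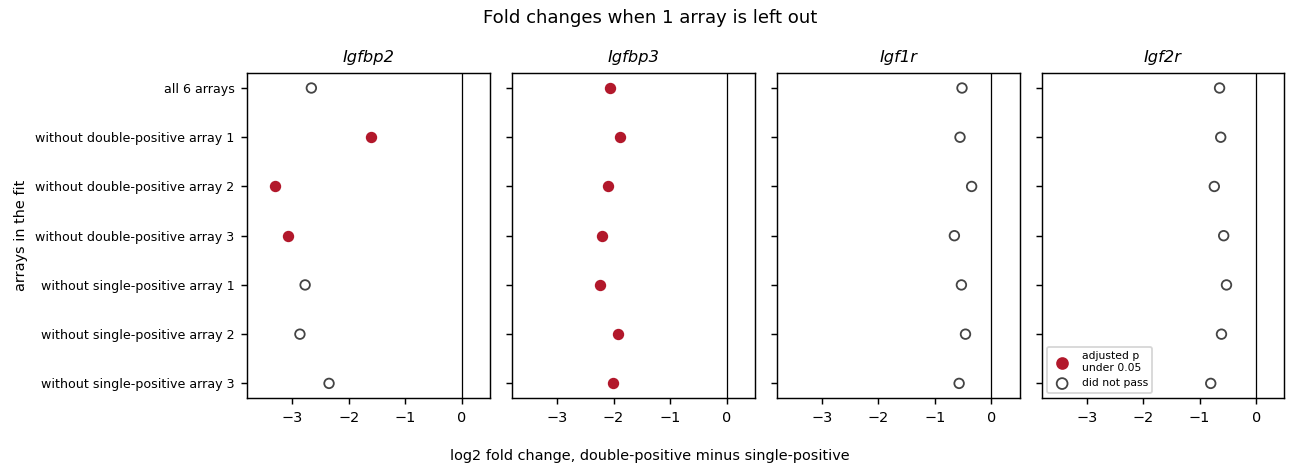
Log2 fold change (horizontal axis, double-positive minus single-positive) of Igfbp2, Igfbp3, Igf1r and Igf2r with all 6 arrays and with each array left out (vertical axis), filled where the limma adjusted p was under 0.05. Igfbp3 is filled in every row, Igfbp2 is filled in the 3 rows without a double-positive array and ranges from -3.30 to -1.61, and the receptors are open and below 0 in every row.

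Igfbp4, the binding protein that Pappa is best known to cut, had a signal of 43823, 42783 and 36135 in the double-positive arrays, against 35760, 37405 and 35149 in the single-positive arrays. The lowest double-positive value lay among the single-positive ones. Igfbp4 had a log2 fold change of 0.18 (SE 0.13, 95% interval -0.12 to 0.47, adjusted p = 0.580 in limma). These signals are near the top of the range of the array, where differences can be compressed. The other 4 tested probe sets of Igfbp4 had log2 fold changes of 0.13 to 0.44, all with overlapping groups, and a sixth was too dim to be tested.

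Igfbp5, which binds matrix and is made by many mesenchymal cells, had a signal of 16458, 24372 and 18440 in the double-positive arrays, against 13534, 28891 and 28981 in the single-positive arrays. The lowest value of all 6 was single-positive array 1, so the groups overlapped. Igfbp5 had a log2 fold change of -0.20 (SE 0.29, 95% interval -0.84 to 0.43), and its dim second probe set had -0.044. Igfbp6, which prefers IGF2 as its ligand, had 1769, 1725 and 2085 in double-positive against 1904, 1985 and 1684 in single-positive arrays. Its values differed little on any array, with a log2 fold change of -3.52e-05 (95% interval -0.59 to 0.59). Igfbp7, which binds IGFs only weakly and is known from vessel walls, had 54934, 60004 and 34633 in double-positive against 49153, 50577 and 40978 in single-positive arrays. The double-positive values lay on both sides of the single-positive ones, with a log2 fold change of 0.055 (95% interval -0.39 to 0.50), again near the top of the range. A second Igfbp7 probe set had 0.38 with overlapping groups, and the remaining one was too dim to be tested.

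Of the 10 genes, 1 was called lower and none higher by limma, beside 4.38% of all 13464 genes called lower and 1.98% called higher. Groups that did not overlap were seen for 4 of the 10, all lower in the double-positive arrays, beside 11.9% of all genes in that direction and 22.4% in either, and 4 had an unadjusted p under 0.05, beside 17.6% of all genes. Of the 28 probe sets 25 were bright enough to be tested and 2 passed, both lower, beside 3.42% of all 27022 probe sets tested that passed and 2.42% that passed as lower. The median log2 fold change was -0.10 over the 10 genes and 0.021 over all genes. Whether the change of Igfbp3 differed from that of another binding protein was not tested, and the intervals above give the range for each.

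**Figure D3:**
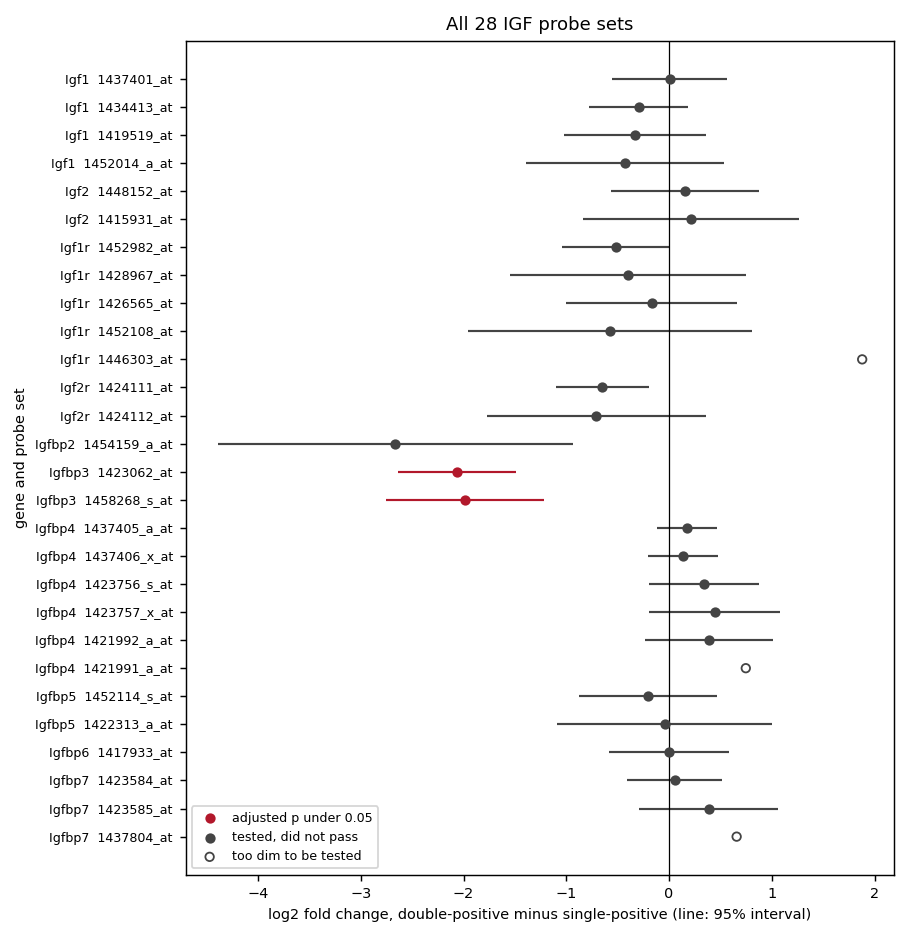
Log2 fold change (horizontal axis, double-positive minus single-positive) of all 28 IGF probe sets (vertical axis, by gene), with the 95% interval as a line for the 25 tested. Both Igfbp3 probe sets, at -2.06 and -1.98, passed, the Igfbp2 interval is the widest of the binding proteins, and the open circle of Igf1r at 1.88 is the dim probe set that went the other way from the rest of that gene.

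Promoters from RefSeq (build GRCm38.p6) are shown for Igfbp3 and Igfbp2, the binding proteins of lowest signal relative to the single-positive cells, and for Igfbp5, the neighbour of Igfbp2 on chromosome 1, whose groups overlapped. All 10 genes had an entry in the table used. Each sequence runs 5′ to 3′ from 250 bases before to 50 after the annotated start, and capitals mark the motifs searched on both strands: the GC box GGGCGG, the TATA-like TATANA, the forkhead motif TGTTTAC and the CArG box of serum response factor.
Igfbp3 (chr11:7213874-7214173, minus strand): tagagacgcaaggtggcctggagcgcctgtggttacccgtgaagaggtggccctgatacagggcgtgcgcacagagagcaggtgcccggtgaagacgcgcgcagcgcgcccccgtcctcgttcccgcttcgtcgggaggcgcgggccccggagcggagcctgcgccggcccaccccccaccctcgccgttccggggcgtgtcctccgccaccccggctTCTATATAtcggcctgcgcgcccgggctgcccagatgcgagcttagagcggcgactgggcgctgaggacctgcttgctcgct
Igfbp2 (chr1:72824230-72824529, plus strand): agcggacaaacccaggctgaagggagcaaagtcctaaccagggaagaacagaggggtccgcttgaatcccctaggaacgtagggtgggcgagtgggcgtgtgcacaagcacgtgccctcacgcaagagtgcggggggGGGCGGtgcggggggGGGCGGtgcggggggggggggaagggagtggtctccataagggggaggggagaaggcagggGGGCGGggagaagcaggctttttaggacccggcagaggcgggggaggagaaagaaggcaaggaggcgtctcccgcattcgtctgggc
Igfbp5 (chr1:72874816-72875115, minus strand): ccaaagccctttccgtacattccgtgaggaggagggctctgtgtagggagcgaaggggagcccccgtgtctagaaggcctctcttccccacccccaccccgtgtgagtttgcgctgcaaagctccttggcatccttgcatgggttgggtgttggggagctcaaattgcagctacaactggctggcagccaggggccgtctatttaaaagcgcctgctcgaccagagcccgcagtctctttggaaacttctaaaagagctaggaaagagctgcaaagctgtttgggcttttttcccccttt
The Igfbp3 promoter held 2 overlapping TATA-like matches, 32 and 30 bases before the start, a motif found in 24.7% of the 32851 promoters of this length. The Igfbp2 promoter shown, the first of its 2 entries, held 3 GC boxes, and 35.7% of promoters held at least 1. The second Igfbp2 entry held none of the 4 motifs. The letters of the forkhead motif (3.65% of promoters) and of the CArG box (1.63%) were in none of these 3 windows, and the Igfbp5 window held none of the 4 motifs. The share of G and C was 71.7%, 67% and 56.3% in the order shown. The other binding proteins, not shown and with overlapping groups as well, held motifs too. Igfbp4 had 1 TATA-like match, Igfbp6 had 2 and Igfbp7 had 4 GC boxes. Of the receptors, which did not pass, Igf2r had 3 GC boxes and Igf1r had 2. The matches were thus not particular to Igfbp3 and Igfbp2. A match is a description of the sequence and not a binding site.

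Other genes of the pathway were read from a list chosen by role, with earlier results of these data known. The shares given for the list and for single roles below therefore describe it and are not a test. Of its 78 genes 66 were tested, 2 rose, 5 fell and 59 did not pass, and the median log2 fold change was 0.0084. Together 7 of 66 is 10.6%, beside 6.37% of all genes called. Without single-positive array 1 the list had 1 rise and 3 falls, without single-positive array 2 it had 2 falls, and without double-positive array 2 it had 3 falls.

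Proteases of the binding proteins and their inhibitors gave both rises, out of 11 tested (18.2%), beside 1.98% of all genes called higher. Pappa, whose product cuts IGFBP4 and IGFBP5, had a signal of 2493, 2352 and 3133 in the double-positive arrays, against 748.8, 703.3 and 803.8 in the single-positive arrays. The replicates were close within each group and the groups lay far apart. Pappa had a log2 fold change of 1.78 (SE 0.28, adjusted p = 0.00432 in limma). A second tested probe set had 1.95 but overlapped between groups and did not pass. The remaining one, too dim to be tested, read 121.8, 121.0 and 72.0 in double-positive against 28.4, 6.66 and 20.9 in single-positive arrays.

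Htra1, a secreted serine protease that can cut IGFBP5, had a signal of 57577, 53767 and 42067 in the double-positive arrays, against 27516, 31554 and 28564 in the single-positive arrays. Htra1 had a log2 fold change of 0.80 (SE 0.15, adjusted p = 0.0109 in limma), and the second probe set passed too. It missed the threshold without single-positive array 1 (adjusted p = 0.0508), with median centring of the arrays (adjusted p = 0.0570) and with no variance trend in limma (adjusted p = 0.124). Stc2, a stanniocalcin that blocks pappalysin, had a signal of 2697, 2140 and 3638 in the double-positive arrays, against 7518, 4660 and 5538 in the single-positive arrays. Every double-positive value was lower, and the log2 fold change of -1.06 (SE 0.28) had an adjusted p of 0.0550. It passed without double-positive array 3 (adjusted p = 0.0256) and in 4 of the 11 alternatives that kept all arrays, and without any other 1 array the adjusted p was 0.0839 to 0.206. Averaged over its probe sets Stc2 had -0.73 (adjusted p = 0.157). The RNA of Igfbp4 and Igfbp5, whose proteins Pappa cuts, had overlapping groups in the same arrays, and cleavage of the proteins was not measured.

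Growth hormone input gave no call among 6 genes. Ghr, the growth hormone receptor, through which growth hormone induces Igf1, had a log2 fold change of -0.29 (SE 0.13, adjusted p = 0.273 in limma). Of the proteins that bind Igf2 messenger RNA, Igf2bp3, an oncofetal RNA-binding protein, had a signal of 2606, 1308 and 3281 in the double-positive arrays, against 10861, 11783 and 6287 in the single-positive arrays. The groups did not overlap, and the log2 fold change was -2.04 (SE 0.37, adjusted p = 0.00844 in limma), while Igf2 itself had overlapping groups. All 5 tested probe sets of Igf2bp3 had lower means and 2 passed. The gene missed the threshold without single-positive array 2 (adjusted p = 0.0509) and on its brightest unshared probe set (-1.05, adjusted p = 0.0559).

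Of 13 receptor adaptors and brakes 1 passed on the probe set that stood for the gene. Socs3, a brake, had a log2 fold change of 0.33 (SE 0.13, adjusted p = 0.214 in limma) on its brightest probe set. Its groups did not overlap, higher in the double-positive arrays, but it did not pass. Yet 2 of its 3 tested probe sets passed. The gene was called higher with the mean over probe sets and with unshared probe sets first. Grb14, an adaptor that binds and inhibits the insulin receptor, had a signal of 476.5, 481.6 and 824.4 in the double-positive arrays, against 6810, 4791 and 3502 in the single-positive arrays. This was the largest fall among the 66 tested pathway genes, 8.47-fold in mean signal, with a log2 fold change of -3.02 (SE 0.35, adjusted p = 0.000818 in limma). When averaged with a second, dim probe set it had -1.33 (adjusted p = 0.0524). Grb10, a related and imprinted adaptor that restrains both receptors, had 42448 ± 3821 in double-positive arrays and 44106 ± 6372 in single-positive arrays (n = 3 each, SD), a difference smaller than the spread. The adaptor Irs1 had a log2 fold change of 0.18 (SE 0.29, adjusted p = 0.836 in limma). None of 15 genes of PI3 kinase, Akt and mTOR passed in limma, and 1 of the 15 had an unadjusted p under 0.05.

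FoxO transcription factors are held out of the nucleus by Akt, and of 18 FoxO genes and textbook FoxO targets 3 fell (16.7%), beside 4.38% of all genes called lower. None rose, and 7 of the 18 had a higher value in the double-positive arrays. Txnip, a thioredoxin inhibitor that responds to glucose, had a signal of 13049, 14034 and 12696 in the double-positive arrays, against 30781, 37984 and 26885 in the single-positive arrays. Txnip had a log2 fold change of -1.25 (SE 0.17, adjusted p = 0.00182 in limma), with double-positive arrays close together and clearly lower, and the adjusted p was 0.0543 when both its probe sets were averaged. Fbxo32, a ubiquitin ligase of muscle wasting, had 609.8, 868.1 and 1858 in double-positive against 4782, 4350 and 2369 in single-positive arrays (-1.85, SE 0.43, adjusted p = 0.0301 in limma). Pdk4, a kinase that shuts off pyruvate oxidation, had 4230, 1959 and 1989 in double-positive against 7283, 6811 and 5012 in single-positive arrays (-1.30, SE 0.33, adjusted p = 0.0440 in limma). Fbxo32 missed the threshold without double-positive array 1 or 2 or single-positive array 1 or 2, with adjusted p of 0.0847 to 0.131, and with median centring (0.0677) or no variance trend (0.0754). Pdk4 missed it without any 1 array except double-positive array 1, with adjusted p of 0.0817 to 0.164, and in 6 of the 11 other alternatives. The FoxO genes themselves, Foxo1, Foxo3 and Foxo4, had log2 fold changes of -0.37, 0.32 and -0.20 and did not pass.

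**Figure D4:**
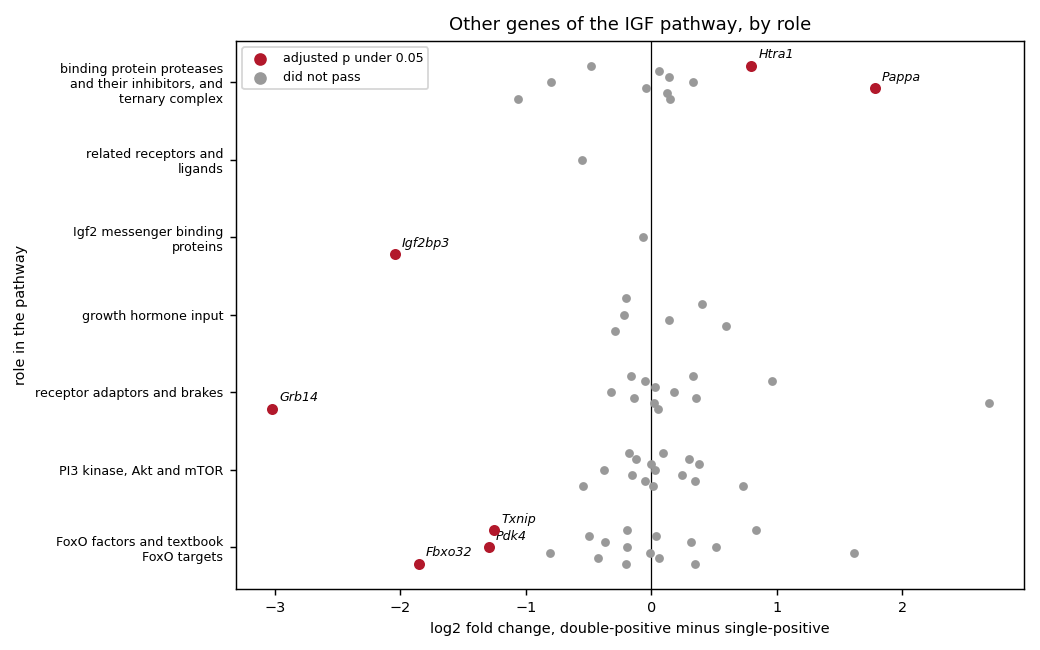
Log2 fold change (horizontal axis, double-positive minus single-positive) of the 66 other pathway genes tested, grouped by role (vertical axis, points offset for visibility), with the 7 that passed named. Rises lie in the protease group (Pappa 1.78, Htra1 0.80), and the unnamed point furthest to the right is Irs4, at 2.69 with an adjusted p of 0.246, named here after its value was seen.

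**Figure D5:**
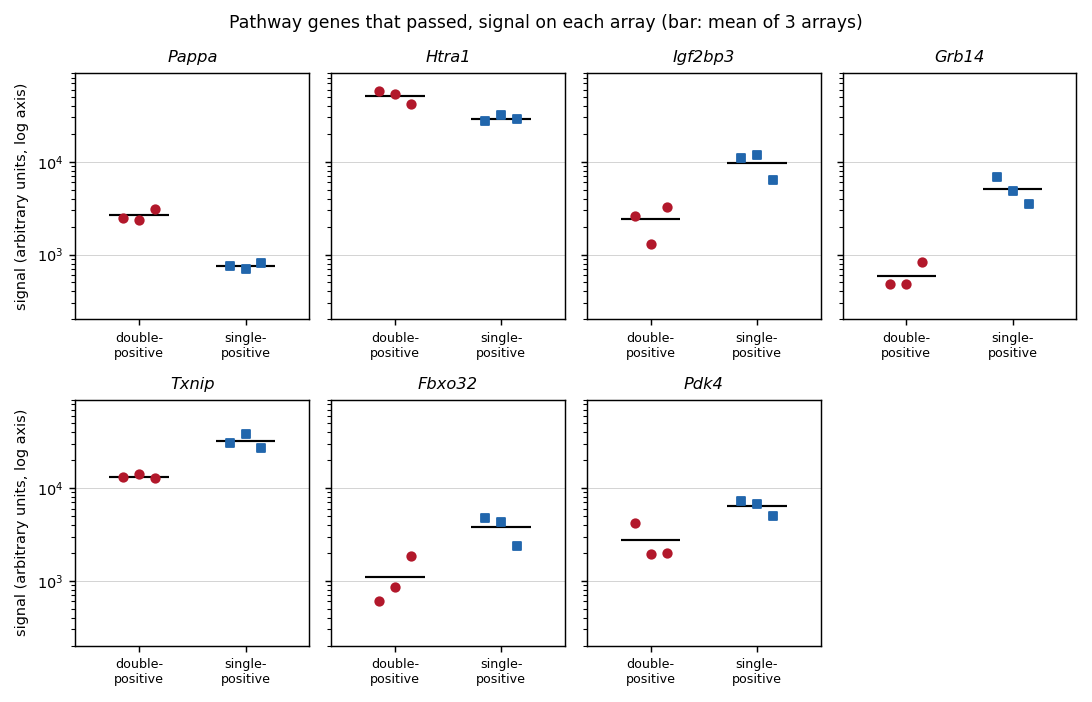
Signal in arbitrary units (vertical log axis) of the 7 pathway genes that passed, on the 3 double-positive arrays (circles, left) and the 3 single-positive arrays (squares, right), with a bar at each group's mean. Pappa runs from 2352 to 3133 in double-positive arrays and from 703.3 to 803.8 in single-positive arrays, and Grb14 from 476.5 to 824.4 in double-positive arrays and from 3502 to 6810 in single-positive arrays.

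The tested genes nearest in pattern to the 2 members of smallest p were found by the root mean square difference of log2 values over the 6 arrays, each gene centred on its own mean, among 13463 genes. For Igfbp3 these were Prkag2, a subunit of AMP-activated kinase (0.158), the transcription factor Sox7 (0.205) and Hs6st2, a heparan sulfate sulfotransferase (0.209). For Igfbp2 they were Slc35f3 (0.333), the ubiquitin ligase Rnf128 (0.347) and Afap1l1 (0.351). The 6 log2 fold changes were between -2.91 and -1.85, which nearness to these members implies.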

How the data were processed

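RNA of 6 sorted bladder cell samples was amplified in 2 rounds, labelled with biotin and measured on Affymetrix MOE430 arrays, per the labels' protocols. Amplification starts at the 3' end, so distant probe sets can lose signal. The signal of the 3' over the 5' actin control probe set was 4.66, 2.78 and 8.02 in double-positive arrays. In single-positive arrays it was 5.97, 5.46 and 3.23. The part of this unevenness in the differences was not tested. The deposited values are linear signal intensity per probe set, made with GCOS per the submitters' processing notes, whose version and algorithm, like the genome build, were not given in the sources used here. All 6 arrays had a mean of 1500.01 once the lowest and highest 2% of values were trimmed, so the authors' intensities were already scaled, which hides any difference in total RNA per cell. Arrays were not rescaled further, since medians differed 1.36-fold, under a limit of 1.5.

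Values were converted to log2(signal + 25.042), the 20th percentile of all values, a scale that understates changes of dim genes. Of 45037 probe sets, 34945 had 1 gene symbol; 64 control probe sets were left out. The probe set of highest mean stood for each gene, which was kept above the 40th percentile of means (6.82), leaving 13464 genes. The test was limma 3.58.1 under R 4.3.3 (lmFit, eBayes with trend, two-sided, Benjamini-Hochberg over all genes, threshold 0.05), and likewise over 27022 probe sets. Of the 78 pathway genes, 12 were not tested, being dim, without a probe set of their own, or not analysed here. In simulated data for these 13464 genes, 100 genes were changed at each of 2 sizes. The fit recovered 11% of the changes of size 1 (log2) and 52% of those of size 2, with 4 of 67 calls false. No pair of arrays shared more than 13 identical values. The members and lists were chosen with earlier results of these data known. Named were all members, the pathway genes that passed, Insr, Ghr, Grb10, Actg2, Acta2 and the genes nearest in pattern. Stc2, Socs3, Irs1, Irs4, Foxo1, Foxo3 and Foxo4 were added after their values were seen. So were the mesothelial markers Krt8, Krt18, Krt19, Upk3b, Wt1, Msln and Lrrn4.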

Additional observations from a re-analysis of the deposited data

How the results depend on the processing

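Besides leaving out 1 array at a time, the alternatives changed the normalization (quantile or median), the offset, the filter, the probe set choice, the variance trend and the array weights, or took the replicate number as a block. Igfbp3 passed in all 17 (log2 fold change -2.24 to -1.89, adjusted p 0.000268 to 0.0099), Pappa in all 17 (adjusted p up to 0.0225), and no IGF gene was called higher in any. The number of IGF genes called lower was 2 in place of 1, with Igfbp2 beside Igfbp3, with 4 times the offset, the 60th percentile filter, array weights and the replicate block, and 1 to 2 with 1 array left out. IGF probe sets called numbered 3 in place of 2 with array weights or the replicate block, and 1 to 2 with 1 array left out. All genes called numbered 857, with 1345 under array weights and 466 to 1084 with 1 array left out (563, 486 and 466 without single-positive array 1, 2 or 3). Pathway genes called higher were 1 in place of 2 with median centring or no variance trend (Htra1 adjusted p 0.0570 and 0.124), and 1 to 3 with 1 array left out. They were 3, with Socs3 added, with the mean over probe sets or unshared probe sets first. Those called lower were 3 in place of 5 with median centring or no variance trend, 2 with the mean over probe sets, and 2 to 5 with 1 array left out. Falls numbered 6 with 4 times the offset, the 60th percentile filter or the replicate block. With quantile normalization, no filter or unshared probe sets first there were 4. Of 391 single-gene values under alternatives 353 kept their side of the threshold, 24 lost and 14 gained a call, and none reversed a call. Acta2 was called lower with the mean over probe sets (-2.48) and with unshared probe sets first (-4.31), and in no other setting. Same-numbered arrays of the groups deviated together with r of 0.190, 0.051 and 0.024, and the replicate numbers were not taken as pairs. No r of differently numbered arrays was set beside these, so whether the arrays were paired was not tested. The block gave 1014 genes called, with an adjusted p of 0.0119 in limma for Igfbp2. Apart from the fits named, the cause of these shifts was not tested. In simulation, with 100 genes changed at each size, only 11% of changes of size 1 (log2) and 52% of those of size 2 were recovered. A gene that did not pass may still differ. The simulation gave 67 calls against 857 in the data. The cutoff after correction depends on the share of changed genes, so these percentages do not measure recovery in the data.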
